A study of Mus musculus with 15 samples.

Results

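Expression of 9 genes of the axon guidance family was followed across sorted mononuclear phagocytes (MPs) of the mouse: the semaphorins Sema4a, Sema4d and Sema7a, the plexins Plxna1, Plxnb2, Plxnc1 and Plxnd1, and the neuropilins Nrp1 and Nrp2. These 9 were chosen by name, with earlier results of these data known, and each symbol matched 1 Ensembl gene. They stood among 38924 genes counted in every library. Counts of members that passed, set beside shares of all genes, are therefore descriptive. RNA was measured in 15 libraries, 3 from each of 5 subtypes. These were splenic CD8+ DCs and LN CD103+ DCs (the DC1 lineage), splenic CD4+ DCs and LN CD11b+ DCs (the DC2 lineage), and splenic Ly6C+ monocytes, with LN standing for the lymph node draining the lung. All groups came from unmanipulated (naïve) female C57BL/6 mice, labelled as 6 to 8 weeks old, and every library pooled cells of 5 mice. No group carried a transgene, a deletion or a treatment. LNs and spleens came from separate cohorts, and the gate on LN DCs took cells with abundant MHC class II, which marks migratory DCs. Organ, cohort and gate therefore cannot be told apart in any comparison of LN with spleen. In addition, p-values measure the spread between the 3 pools of a subtype, estimated jointly over all 5 subtypes. The spread of the compared subtypes alone can differ from it.

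Semaphorins are secreted or membrane-bound proteins that were named for steering growing axons, and plexins are their main transmembrane receptors, whose cytoplasmic part acts on small GTPases and the cytoskeleton. Neuropilins have a short cytoplasmic tail and act as coreceptors, with plexins for class 3 semaphorins and with VEGF receptors for VEGF family ligands. In the immune system the same proteins are known from contacts between DCs and lymphocytes: semaphorin 4A and 4D are ligands on antigen-presenting and lymphoid cells, semaphorin 7A binds plexin C1 and the integrin alpha 1 beta 1, and plexin A1 is known from DC migration through the lymphatics.

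Libraries held 4531243 to 10233914 counts on genes, and replicates of each subtype differed by more than counting noise. Sorting labels were set beside markers, in TPM (transcript abundance scaled for exon length and library size). The 7 DC1 genes summed to 1978 to 2807 TPM in splenic CD8+ DCs and 494 to 632 TPM in LN CD103+ DCs. In the splenic and LN DC2 subtypes they summed to 146 to 228 TPM and 307 to 422 TPM. The 5 DC2 genes summed to 1185 to 1512 TPM in splenic CD4+ and 409 to 523 TPM in LN CD11b+ DCs. They reached at most 254 TPM in the DC1 subtypes. Monocytes held 1205 to 1391 TPM, so these genes did not set DC2 apart from monocytes. The 5 DC genes summed to 104556 to 183910 TPM in splenic DCs and 51280 to 96257 TPM in LN CD11b+ DCs. LN CD103+ DCs held 21476 to 35477 TPM and monocytes 14110 to 17209 TPM. The 4 genes of migratory DCs, Ccr7, Fscn1, Ccl22 and Cacnb3, summed to 6600 to 13154 TPM in LN DCs and 156 to 420 TPM in splenic DCs, and 5 monocyte genes summed to 6382 to 7934 TPM in monocytes. Signs of other cells differed between subtypes. The 6 T cell genes summed to 93.9 to 197 TPM in LN DCs, to 5.02 to 25.04 TPM in splenic DCs and to 0 to 0.990 TPM in monocytes, in which Cd3e and Trac had no count. The 6 neutrophil genes summed to 343 to 571 TPM in monocytes and to at most 2.58 TPM in DCs, where Ly6g, Mpo and Elane had no count. That list includes S100a8, which the paper also names as a signature gene of monocytes. The 7 macrophage genes were highest in the DC2 subtypes (794 to 1277 TPM) and summed to 145 to 295 TPM in the DC1 subtypes. The 6 B cell genes summed to 260 to 833 TPM in all subtypes. In sorted bulk RNA, fewer cells of a type and less RNA per cell cannot be told apart.

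The 9 genes lie on 8 chromosomes of mm10 (GRCm38). In the annotation counted on, Sema4a spanned chr3:88435959-88461182, Sema4d chr13:51701246-51793747, Sema7a chr9:57940113-57962864, Plxna1 chr6:89316316-89362613, Plxnb2 chr15:89155549-89171120, Plxnc1 chr10:94790866-94944578, Plxnd1 chr6:115954811-115995005, Nrp1 chr8:128359073-128505462 and Nrp2 chr1:62703285-62818695. Counts covered exons, and exon overlap with another gene was 0% for 6 of the 9. It was 1.35% of exon length in Sema4a (Mir7011) and in Nrp1 (Mir1903), and 10.7% in Plxna1 (Gm26811 on the opposite strand), where counting without strand cannot separate the transcripts.

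The 4 members Sema7a, Plxnc1, Plxnd1 and Nrp2 were higher in LN than in spleen within both DC lineages and have a single start site in RefSeq, so the 250 bases before that site are shown, 5′ to 3′ on the gene's strand (RefSeq, GRCm38.p6). Capitals mark GGGCGG on either strand (CCGCCC where it lies on the other strand) and, in Plxnc1, 1 pair of GAAA boxes with 2 bases between them.
Sema7a, chr9:57939862-57940111, + strand: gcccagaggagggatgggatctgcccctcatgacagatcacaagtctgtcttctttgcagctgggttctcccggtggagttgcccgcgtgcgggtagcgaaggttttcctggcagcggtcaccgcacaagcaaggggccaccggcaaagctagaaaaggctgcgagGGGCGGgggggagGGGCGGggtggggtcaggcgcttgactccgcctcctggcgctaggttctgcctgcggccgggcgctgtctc
Plxnc1, chr10:94944846-94945095, - strand: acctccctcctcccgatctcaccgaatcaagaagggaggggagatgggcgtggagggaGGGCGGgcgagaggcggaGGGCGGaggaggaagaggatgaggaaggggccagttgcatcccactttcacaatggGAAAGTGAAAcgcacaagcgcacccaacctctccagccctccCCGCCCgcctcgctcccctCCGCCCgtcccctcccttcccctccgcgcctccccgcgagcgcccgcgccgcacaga
Plxnd1, chr6:115995006-115995255, - strand: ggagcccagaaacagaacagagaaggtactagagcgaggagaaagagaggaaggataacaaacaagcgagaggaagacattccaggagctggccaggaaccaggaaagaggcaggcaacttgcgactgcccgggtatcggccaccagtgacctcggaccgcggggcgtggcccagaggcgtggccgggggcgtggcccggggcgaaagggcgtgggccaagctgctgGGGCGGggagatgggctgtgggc
Nrp2, chr1:62703067-62703316, + strand: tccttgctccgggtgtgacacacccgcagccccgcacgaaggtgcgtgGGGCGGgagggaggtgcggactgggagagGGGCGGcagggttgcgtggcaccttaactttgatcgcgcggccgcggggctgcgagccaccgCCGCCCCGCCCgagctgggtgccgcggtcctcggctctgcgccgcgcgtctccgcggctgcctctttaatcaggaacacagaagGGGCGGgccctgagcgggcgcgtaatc
All 4 windows were rich in G and C, at 66.4% for Sema7a, 68.8% for Plxnc1, 64.8% for Plxnd1 and 72.4% for Nrp2, beside a median of 52.4% over 32851 windows of all genes. The GGGCGG box occurred in 32.7% of those windows and was found 2 times in Sema7a, 4 times in Plxnc1, 1 time in Plxnd1 and 5 times in Nrp2 (2 of them overlapping). The pair of GAAA boxes, searched on both strands, occurred in 2.98% of windows, TGANTCA in 6.75% and the NF-kB consensus in 3.90%, and neither TGANTCA nor the NF-kB consensus was found in these 4 windows. Windows were on hand for 8 of the 9 members, all but Plxna1. A match describes the letters of a window only.

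All 9 members differed among the 5 subtypes (edgeR quasi-likelihood F test, adjusted p from 1.1e-12 for Plxnc1 to 2.4e-07 for Nrp1), in a data set in which 73.5% of 14456 genes tested did. All 9 had passed the filter on low counts. Levels are given first in TPM, which can be compared between genes, and differences come from counts scaled to library size (CPM) with TMM factors. By TPM, the most abundant members were Plxnc1 in LN CD103+ DCs and Plxnb2 in monocytes (means of 364 and 358 TPM), and the least abundant was Sema7a in monocytes. The plot of TPM by library shows that no 2 members had the same profile, and that the top subtype was LN CD11b+ DCs for Plxna1, Plxnd1 and Nrp2, LN CD103+ DCs for Sema7a and Plxnc1, and monocytes for the other 4.

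**Figure D1:**
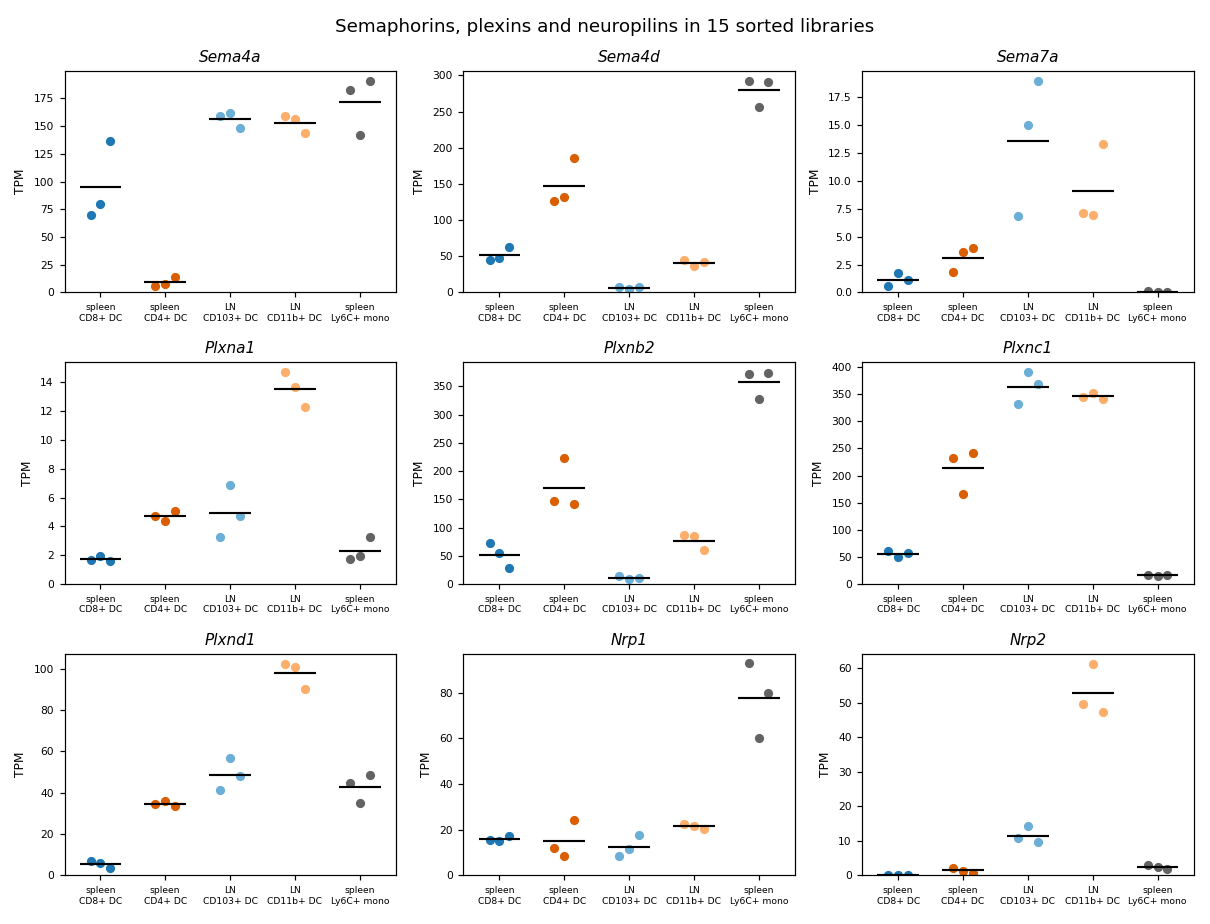
Level of each member in TPM (y axis, from 0) in the 15 libraries, grouped by subtype on the x axis. Each point is 1 library and each line the mean of 3. Plxnb2 and Sema4d are highest in monocytes and lowest in LN CD103+ DCs, Plxnc1 is at 333 to 390 TPM in LN DCs and at 15.1 to 17.1 TPM in monocytes, and Nrp2 reaches 47.3 to 61.2 TPM in LN CD11b+ DCs and at most 14.3 TPM elsewhere.

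Among the ligands, Sema4a, a transmembrane semaphorin known to costimulate T cells, was far lower in 1 subtype than in the others. Its level was 5.95, 7.68 and 14.02 TPM in the 3 libraries of splenic CD4+ DCs, against 70.0, 79.6 and 136 TPM in splenic CD8+ DCs. The remaining subtypes ranged from 148 to 162 TPM (LN CD103+ DCs), 144 to 159 TPM (LN CD11b+ DCs) and 142 to 191 TPM (monocytes). Splenic CD4+ DCs thus lay below all other libraries, and splenic CD8+ DC replicate 3 lay close to the other subtypes while replicates 1 and 2 lay well below them. Sema4a was 10.9-fold higher in splenic CD8+ than in splenic CD4+ DCs (log2 difference 3.44 ± 0.29 SE, edgeR adjusted p = 9.0e-08) and 17.5-fold higher in LN CD11b+ than in splenic CD4+ DCs (4.13 ± 0.30, adjusted p = 1.1e-08). LN CD103+ DCs, monocytes and LN CD11b+ DCs did not differ beyond their spread (adjusted p = 0.84 to 0.89), and which of them was highest depended on the scale, TPM placing monocytes and CPM LN CD103+ DCs at the top.

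Sema4d (CD100), the transmembrane ligand of plexin B1, plexin B2 and CD72, ran the other way among the DC subtypes in mean TPM. Monocytes had the highest mean TPM of both genes. Monocytes held 292, 257 and 291 TPM and splenic CD4+ DCs 126, 132 and 186 TPM. Splenic CD8+ DCs followed with 44.7, 47.9 and 63.0 TPM and LN CD11b+ DCs with 44.4, 37.2 and 41.8 TPM. LN CD103+ DCs were lowest, at 7.34, 4.16 and 7.42 TPM. All of these steps exceeded the spread apart from that between splenic CD8+ and LN CD11b+ DCs, whose libraries overlapped (log2 difference of LN CD11b+ minus splenic CD8+ DCs -0.33 ± 0.21, adjusted p = 0.22). Monocytes held 39.1-fold more Sema4d than LN CD103+ DCs (log2 difference 5.29 ± 0.25, edgeR adjusted p = 7.8e-12).

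Sema7a, a GPI-anchored semaphorin, was the scarcest of the 3 ligands in every subtype but LN CD103+ DCs, where its mean TPM was above that of Sema4d. It reached 6.89, 15.03 and 18.9 TPM in LN CD103+ DCs and 7.12, 6.94 and 13.3 TPM in LN CD11b+ DCs, and these overlapped. Splenic CD4+ DCs had 1.81, 3.60 and 3.99 TPM and splenic CD8+ DCs 0.542, 1.72 and 1.08 TPM. In monocytes 1 count was found in all, in replicate 1. LN DC libraries were thus all above the splenic DC libraries, and these all above monocytes. LN CD103+ DCs exceeded splenic CD8+ DCs 12.8-fold (log2 difference 3.68 ± 0.52, edgeR adjusted p = 1.2e-05), and LN CD11b+ DCs exceeded splenic CD4+ DCs 2.95-fold (1.56 ± 0.48, adjusted p = 0.017). The call in DC2 was lost without splenic CD4+ DC replicate 1 (adjusted p = 0.077) or LN CD11b+ DC replicate 3 (0.072). Relative to the single count in monocytes, Sema7a was 456 times higher in LN CD103+ DCs (95% counting interval 81.8 to 18005) and 35.5 times higher in splenic CD8+ DCs (6.37 to 1402), and without monocyte replicate 1 it was at least 118-fold and 9.21-fold higher, taking 3 counts over the remaining libraries as the floor. Without monocyte replicate 2 those ratios were 252 and 19.6. Counting intervals and floors cover counting error only.

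Among the receptors, Plxna1, known as a receptor for Sema6d that pairs with Trem2 and DAP12 (Tyrobp) in DCs, was the least abundant of the 4 plexins among the members. LN CD11b+ DCs held 14.7, 13.6 and 12.3 TPM. LN CD103+ DCs held 3.29, 6.89 and 4.71 TPM and splenic CD4+ DCs 4.74, 4.35 and 5.08 TPM, which overlapped. Monocytes (1.75, 1.92 and 3.26 TPM) and splenic CD8+ DCs (1.68, 1.91 and 1.61 TPM) were lowest and also overlapped. Plxna1 was 2.57-fold lower in LN CD103+ than in LN CD11b+ DCs (log2 difference -1.36 ± 0.28, edgeR adjusted p = 0.0025), and 2.63-fold lower in splenic CD8+ than in splenic CD4+ DCs (-1.39 ± 0.30, adjusted p = 0.0017).

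Plxnb2, a receptor for class 4 semaphorins including Sema4d, was most abundant in monocytes, at 372, 327 and 375 TPM. Splenic CD4+ DCs had 147, 223 and 142 TPM, LN CD11b+ DCs 85.9, 84.3 and 60.1 TPM, and splenic CD8+ DCs 71.9, 55.0 and 28.5 TPM. LN CD103+ DCs had 13.6, 9.46 and 10.1 TPM. This is the order of Sema4d, except that LN CD11b+ and splenic CD8+ DCs, which did not differ beyond their spread in either gene (adjusted p = 0.13 for Plxnb2), changed places. Without splenic CD8+ DC replicate 1, Plxnb2 passed the test between them (log2 difference 0.86, adjusted p = 0.047). Within each organ Plxnb2 was higher in DC2 than in DC1, 3.29-fold in spleen (log2 difference of DC1 minus DC2 -1.72 ± 0.31, edgeR adjusted p = 3.6e-04) and 6.599-fold in LN (-2.72 ± 0.32, adjusted p = 1.1e-05).

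Plxnc1, the plexin that binds Sema7a, reached the highest level of any member in a DC library. LN CD103+ DCs held 333, 390 and 369 TPM and LN CD11b+ DCs 346, 352 and 340 TPM, with no difference beyond the spread (adjusted p = 0.62). Splenic CD4+ DCs held 232, 165 and 242 TPM, splenic CD8+ DCs 60.7, 49.9 and 57.2 TPM and monocytes 16.7, 15.1 and 17.1 TPM. These last 3 subtypes were each separate from all others. Monocytes had 25.6-fold less than LN CD103+ DCs (log2 difference -4.68 ± 0.19, edgeR adjusted p = 2.0e-12) and 3.68-fold less than splenic CD8+ DCs (-1.88 ± 0.17, adjusted p = 5.9e-08).

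Plxnd1, known as a receptor for Sema3e and Sema4a and as a regulator of vessel patterning, was lowest in splenic CD8+ DCs, with 7.07, 6.03 and 3.78 TPM. LN CD11b+ DCs were highest, with 102, 101 and 90.2 TPM. Between them lay LN CD103+ DCs (41.4, 57.0 and 48.0 TPM), monocytes (44.7, 34.8 and 48.6 TPM) and splenic CD4+ DCs (34.4, 35.9 and 33.5 TPM). Monocytes overlapped with LN CD103+ DCs and with splenic CD4+ DCs and passed the test against neither (adjusted p = 0.14 and 0.40). LN CD103+ DCs lay above splenic CD4+ DCs by a log2 difference of 0.63 ± 0.22 (edgeR adjusted p = 0.025), a call that was lost without splenic CD4+ DC replicate 1 (0.065) or 3 (0.079) or LN CD103+ DC replicate 2 (0.12), in a fit of those subtypes alone (0.060) and with limma on TPM (0.067). The highest and lowest subtypes differed 17.5-fold (4.13 ± 0.25, adjusted p = 7.3e-10).

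Among the coreceptors, Nrp1, which binds class 3 semaphorins and VEGF-A, set monocytes apart from DCs and hardly separated DC subtypes. Monocytes held 92.8, 60.1 and 79.7 TPM. The DC subtypes lay at 15.4, 14.998 and 17.3 TPM (splenic CD8+), 11.9, 8.66 and 24.2 TPM (splenic CD4+), 8.65, 11.5 and 17.6 TPM (LN CD103+) and 22.7, 21.6 and 20.3 TPM (LN CD11b+). Every monocyte library was above every DC library, with log2 differences from 1.73 ± 0.28 against LN CD11b+ DCs (3.31-fold, edgeR adjusted p = 5.0e-05) to 2.43 ± 0.29 against LN CD103+ DCs (5.40-fold, adjusted p = 9.0e-07). None of the 6 comparisons among DC subtypes passed in the unpaired fit (adjusted p = 0.092 to 0.85). The replicate numbers paired the libraries in 4 of these 6 comparisons, and with the number as a block Nrp1 passed in 2 of them: it was higher in LN CD11b+ than in splenic CD4+ DCs by a log2 difference of 0.71 (adjusted p = 0.032) and lower in LN CD103+ than in LN CD11b+ DCs, by -0.76 (adjusted p = 0.043). The first comparison also passed without splenic CD4+ DC replicate 3, the library with 24.2 TPM (1.06, adjusted p = 0.0043). The second passed without that library (-0.71, adjusted p = 0.044) or LN CD103+ DC replicate 3 (-0.99, adjusted p = 0.045).

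Nrp2, the coreceptor for Sema3f and VEGF-C, had the widest range among the DC subtypes. LN CD11b+ DCs held 49.8, 61.2 and 47.3 TPM and LN CD103+ DCs 10.8, 14.3 and 9.59 TPM. Monocytes (3.04, 2.33 and 1.88 TPM) and splenic CD4+ DCs (2.23, 1.25 and 0.859 TPM) overlapped and did not pass the test against each other (log2 difference of monocytes minus CD4+ DCs 0.64 ± 0.31, adjusted p = 0.096). That comparison passed without splenic CD4+ DC replicate 1 (1.06, adjusted p = 0.015). Splenic CD8+ DCs were near the limit of detection, with 3, 4 and 3 counts in their libraries. Mean CPM was 509.8 times higher in LN CD11b+ than in splenic CD8+ DCs, and relative to the 10 pooled counts the ratio was 517 (95% counting interval 281 to 1079). The 7 endothelial genes, Kdr among them, summed to 16.9 to 20.03 TPM in LN CD11b+ DCs and to 24.9 to 44.8 TPM in splenic CD8+ DCs. Emcn had no count in either subtype. Tie1 and Cldn5 had no count in splenic CD8+ DCs but were detected in LN CD11b+ DCs. The part of endothelial genes in the Nrp2 difference was not tested.

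Next, LN and splenic DCs of the same lineage were compared, to ask which members differed with the organ. In the DC1 lineage, 8 of 9 members passed: Nrp2, Sema4a, Plxna1, Plxnd1, Plxnc1 and Sema7a were higher in LN CD103+ than in splenic CD8+ DCs and Sema4d and Plxnb2 were lower, while 23.8% of all genes tested were higher and 21.8% lower. In the DC2 lineage, LN CD11b+ against splenic CD4+ DCs, the same 6 were higher and the same 2 lower, beside 19.3% and 13.8% of all genes. The median log2 difference over the 9 members was 1.61 in DC1 and 1.55 in DC2, and over all genes tested 0.0048 and 0.050. The 2 comparisons share no library, but they are not independent. Deviations of same-numbered libraries correlated between the lineages in spleen (0.26 to 0.62) and in LN (0.32 to 0.44). Both comparisons also share 1 dispersion fit and the difference in organ, cohort and gate.

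The size of the change differed between members. Nrp2 changed most, 115-fold in DC1 (log2 difference 6.85 ± 0.41, edgeR adjusted p = 4.3e-10) and 37.2-fold in DC2 (5.22 ± 0.32, adjusted p = 1.9e-09). The DC1 value of Nrp2 rests on 10 counts in splenic CD8+ DCs, so its size is uncertain. Plxna1 rose by about the same factor in both lineages, 3.06-fold (1.61 ± 0.29, adjusted p = 1.9e-04) and 2.99-fold (1.58 ± 0.28, adjusted p = 2.5e-04). Sema4d fell 7.79-fold in DC1 (-2.96 ± 0.23, adjusted p = 7.9e-09) and 3.45-fold in DC2 (-1.79 ± 0.22, adjusted p = 3.7e-06). Plxnb2, its receptor, fell 4.38-fold in DC1 (-2.13 ± 0.31, adjusted p = 2.0e-05) and 2.19-fold in DC2 (-1.13 ± 0.30, adjusted p = 0.0068). The fall of Plxnb2 in DC2 was not called without splenic CD4+ DC replicate 2, its highest library (adjusted p = 0.056). The rise of Sema4a in DC1 was the smallest called in that lineage, 1.75-fold (0.80 ± 0.26, adjusted p = 0.017), and it was not called without splenic CD8+ DC replicate 1 (0.090) or 2 (0.086). As given above, the T cell genes also differed between LN and spleen, and their part in these differences was not tested.

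**Figure D2:**
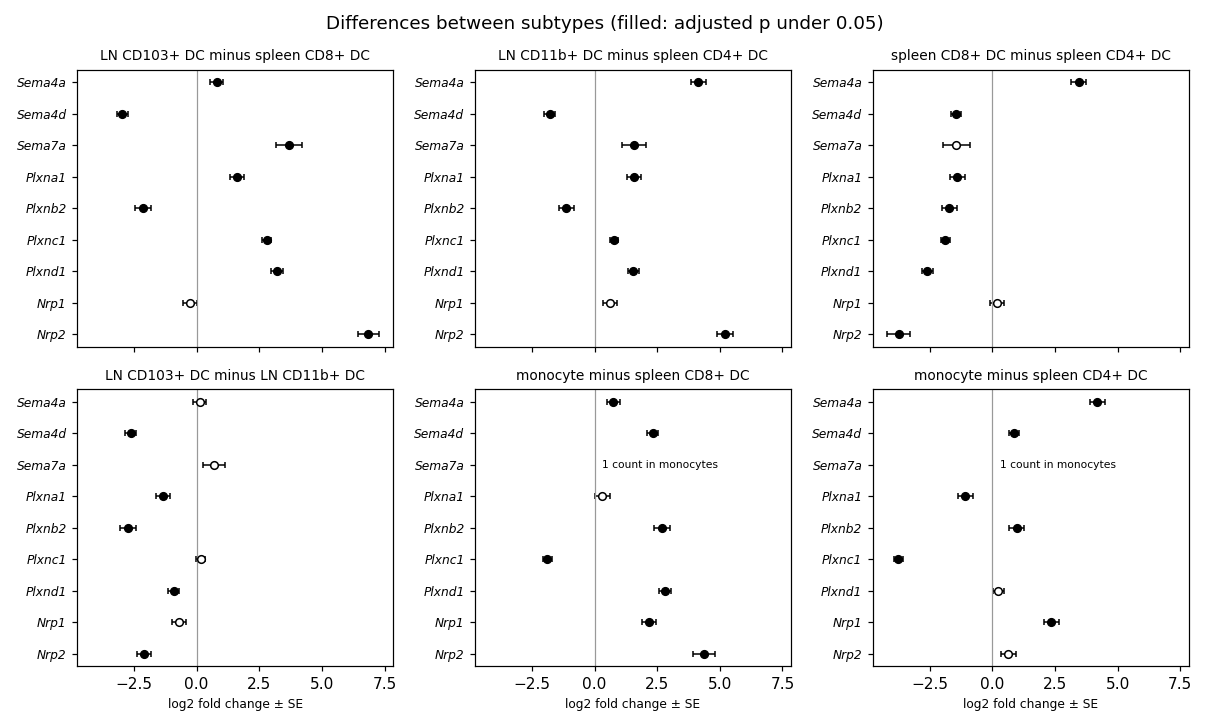
Log2 fold change (x axis) with its standard error for each member (y axis) in 6 comparisons, 1 per panel. Points are edgeR estimates, filled where the adjusted p passed the threshold of 0.05, and Sema7a is left out of the monocyte panels because monocytes held 1 count of it. In both LN minus spleen panels Sema4d and Plxnb2 lie to the left of 0, Nrp1 is open, and the 6 others lie to the right.

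The lineages were then compared within each organ. In spleen, 7 of 9 members passed: Sema4a was higher in CD8+ than in CD4+ DCs, and Nrp2, Plxna1, Plxnd1, Plxnc1, Sema4d and Plxnb2 were lower, with 13.1% of all genes higher and 14.4% lower. Nrp2 was 13.3-fold lower (log2 difference -3.73 ± 0.45, edgeR adjusted p = 6.4e-06), Plxnd1 6.01-fold (-2.59 ± 0.24, adjusted p = 2.1e-07), Plxnc1 3.66-fold (-1.87 ± 0.17, adjusted p = 2.1e-07) and Sema4d 2.74-fold (-1.45 ± 0.21, adjusted p = 5.2e-05). Sema7a missed the threshold (-1.43 ± 0.53, adjusted p = 0.051) and passed with the replicate number as a block (-1.45, adjusted p = 0.017), and also without splenic CD8+ DC replicate 2 (0.029), splenic CD4+ DC replicate 1 (0.025), LN CD103+ DC replicate 1 (0.037) or LN CD11b+ DC replicate 3 (0.049). It also passed with RLE size factors (0.047), without a filter on low counts (0.015), with filterByExpr (0.0498) and with DESeq2 (0.026). In LN, 5 of 9 passed, all lower in CD103+ than in CD11b+ DCs, beside 5.22% of all genes higher and 7.73% lower. These were Plxnb2, Sema4d (6.19-fold, -2.63 ± 0.23, adjusted p = 3.2e-07), Nrp2 (4.31-fold, -2.11 ± 0.27, adjusted p = 2.7e-05), Plxna1 and Plxnd1 (1.89-fold, -0.92 ± 0.22, adjusted p = 0.0078). All 5 were also among the 6 lower in DC1 in spleen. Thus Sema4d, Plxnb2, Plxna1, Plxnd1 and Nrp2 were lower in DC1 in both organs. The macrophage genes were higher in the DC2 subtypes of both organs, and their part in these differences was not tested.

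Whether the LN to spleen difference itself depended on the lineage was tested as an interaction, the difference in DC1 minus that in DC2. Of 9 members, 4 passed, beside 11.2% of all genes. Sema4a rose by less in DC1 than in DC2 (interaction -3.33 ± 0.38 on the log2 scale, edgeR adjusted p = 1.6e-05), Plxnc1 rose by more (2.03 ± 0.24, adjusted p = 1.7e-05), and so did Plxnd1 (1.67 ± 0.31, adjusted p = 0.0018). Sema4d fell by more in DC1 (-1.17 ± 0.30, adjusted p = 0.016), a call that was lost without LN CD103+ DC replicate 2 (0.053). The plot of spleen and LN levels by lineage shows what these terms describe. Sema4a and Plxnc1 were far apart between the lineages in spleen (10.9-fold and 3.66-fold) and did not differ beyond their spread in LN. Plxnd1 differed 6.01-fold between lineages in spleen and 1.89-fold in LN, and Sema4d 2.74-fold in spleen and 6.19-fold in LN. For Nrp2 (1.63 ± 0.55, adjusted p = 0.065) and Sema7a (2.12 ± 0.69, adjusted p = 0.055) the interaction missed the threshold. Both passed with the replicate number as a block (0.028 and 0.021), with DESeq2 (0.038 and 0.023) and without a filter on low counts (0.023 and 0.0079). Neither passed with RLE size factors, filterByExpr, limma on TPM or a fit of the compared subtypes alone. Nrp2 passed without splenic CD4+ DC replicate 3 (0.016) or LN CD11b+ DC replicate 2 (0.048), and Sema7a without splenic CD8+ DC replicate 2 (0.037), splenic CD4+ DC replicate 1 (0.032), LN CD103+ DC replicate 1 (0.024) or LN CD11b+ DC replicate 3 (0.040). Plxnb2 (-1.003 ± 0.42, adjusted p = 0.14) passed without a filter on low counts (0.029). It also passed without splenic CD8+ DC replicate 3 (0.037) or splenic CD4+ DC replicate 2 (0.036). Nrp1 (-0.89 ± 0.39, adjusted p = 0.16) passed without splenic CD4+ DC replicate 3 (0.016).

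**Figure D3:**
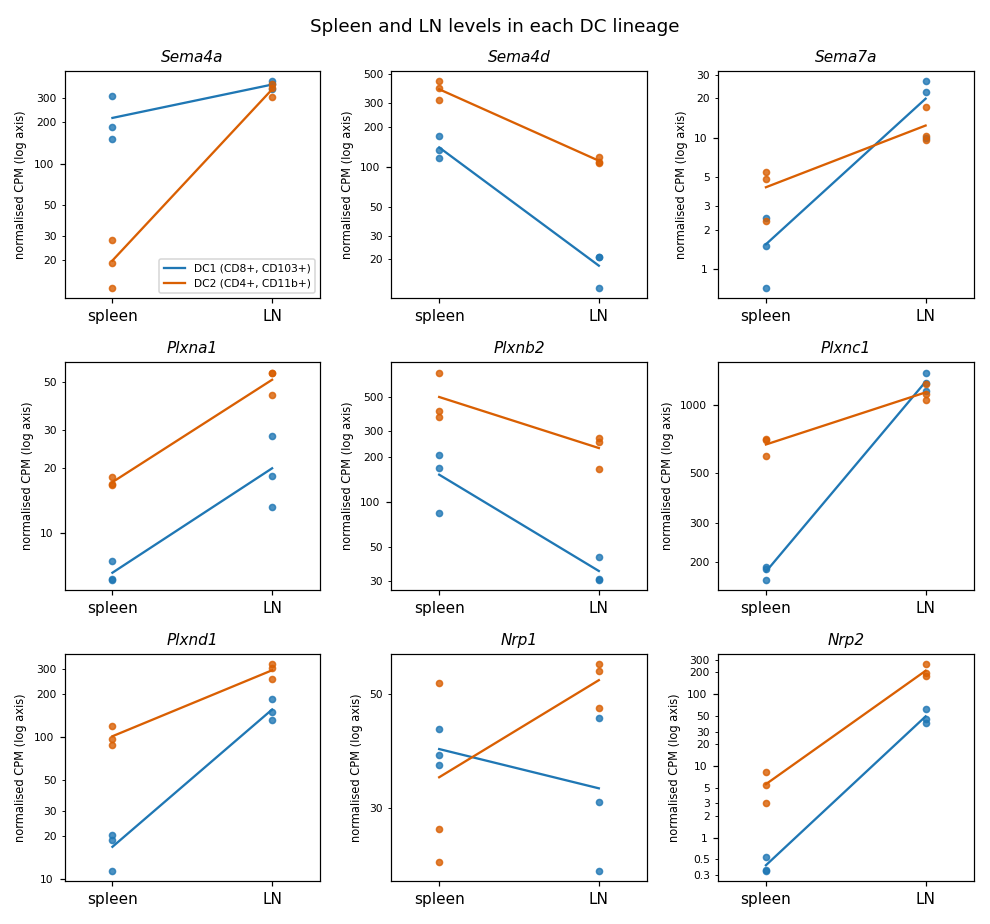
Normalised CPM (y axis, log scale, with its own range in each panel) in spleen and LN for the DC1 lineage (CD8+ and CD103+ DCs) and the DC2 lineage (CD4+ and CD11b+ DCs). Points are libraries and lines join the means of 3. The lines of Sema4a and Plxnc1 meet in LN, those of Sema4d part, and those of Plxna1 run side by side.

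Monocytes were compared with each DC subtype, and these comparisons share the monocyte libraries. Each monocyte library summed 2 sequencing runs and each DC library came from 1. By the paper's methods, CD11b beads enriched the monocytes and CD11c beads the DCs. Runs, enrichment and cell type therefore cannot be told apart here. Against splenic CD8+ DCs 8 of 9 members passed, 6 higher (Nrp2, Sema4a, Plxnd1, Nrp1, Sema4d and Plxnb2) and 2 lower (Plxnc1 and Sema7a), beside 20.4% and 21.7% of all genes. Against splenic CD4+ DCs 7 passed, 4 higher (Sema4a, Nrp1, Sema4d and Plxnb2) and 3 lower (Plxna1, Plxnc1 and Sema7a), beside 23.8% and 24.2%. Against LN CD103+ DCs 7 passed and against LN CD11b+ DCs 8, beside 53.2% and 47.8% of all genes in either direction. Nrp1, Sema4d and Plxnb2 were higher and Plxnc1 and Sema7a lower in all 4 comparisons. Plxnb2 was 6.46-fold higher in monocytes than in splenic CD8+ DCs (log2 difference 2.69 ± 0.32, edgeR adjusted p = 1.3e-06) and 1.96-fold higher than in splenic CD4+ DCs (0.97 ± 0.30, adjusted p = 0.012), the latter not called without splenic CD4+ DC replicate 1 (0.053) or 3 (0.053). Sema4d was 5.01-fold (2.33 ± 0.22, adjusted p = 7.7e-08) and 1.83-fold higher (0.87 ± 0.21, adjusted p = 0.0023). Sema4a was 1.67-fold higher than in splenic CD8+ DCs (0.74 ± 0.26, adjusted p = 0.028) with overlapping libraries, and that call was lost without splenic CD8+ DC replicate 1 (0.14) or 2 (0.12) or monocyte replicate 1 (0.069) or 3 (0.097). The neutrophil genes were detected mainly in monocytes, and their part in these differences was not tested.

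Across lineage and organ, LN CD11b+ against splenic CD8+ DCs gave 6 members, all higher in LN CD11b+ DCs (39.9% of all genes in either direction), and LN CD103+ against splenic CD4+ DCs gave 7 (47.0%). The 6 were Nrp2, Sema4a, Plxna1, Plxnd1, Plxnc1 and Sema7a. Sema4a was weakest among them, at a log2 difference of 0.69 ± 0.26 (edgeR adjusted p = 0.043), and in 8 of the fits that left out 1 library it was not called (adjusted p = 0.050 to 0.18), those without splenic CD8+ DC replicate 1 or 2, LN CD103+ DC replicate 2 or 3, LN CD11b+ DC replicate 1 or 2, or monocyte replicate 1 or 3. The 7 were Nrp2, Sema4a, Plxnd1, Plxnc1 and Sema7a, which were higher in LN CD103+ DCs, and Sema4d and Plxnb2, which were lower.

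For each member the genes with the most similar profile over the 15 libraries were ranked among 10146 genes, by the root mean square difference of their centred log2 CPM. Il6ra (0.29) and Nod1 (0.37) came nearest to Sema4d, Ctsa (0.36) and Frrs1 (0.36) to Plxnb2, Degs1 (0.31) and Stom (0.34) to Nrp1, Adap1 (0.37) and Elk3 (0.43) to Plxnd1, and Gm16008 (0.39) and Slc44a1 (0.40) to Plxnc1. Gpr183 (0.46) and Slc38a2 (0.48) were nearest to Plxna1, Fbxo4 (0.54) and Lmna (0.58) to Sema4a, Suox (0.54) and Spib (0.56) to Sema7a, and Fabp5 (0.68) and Efnb2 (0.88) to Nrp2. Ligands and their receptors were near each other by this measure in some pairs and far apart in others. Plxnb2 ranked 15 among the genes nearest to Sema4d (0.58), and Plxnc1 ranked 14 among those nearest to Sema7a (0.70). For Sema4a, by contrast, Plxnd1 ranked 7413 (2.02) and Plxnb2 9389 (2.73). The libraries share their cells, depth and preparation, so that these ranks describe likeness in these 15 libraries only.

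Of 17 further semaphorins and 5 further plexins, 11 passed the filter on low counts, and all 11 differed among the subtypes, as did 73.5% of all genes tested. A gene high in 1 subtype alone can pass that filter, which favours genes that differ, so this count is no result about the family. Only Sema6d, Sema4c and Sema4f reached a mean of 10 CPM in any subtype. Sema6d, a transmembrane ligand of plexin A1, was at 97.5, 106 and 104 TPM in LN CD103+ DCs and at 34.4, 41.1 and 56.2 TPM in LN CD11b+ DCs, against 1.07 to 2.67 TPM in splenic DCs and 0 to 0.288 TPM in monocytes. In LN CD103+ DCs its TPM was above that of 7 of the 9 members, all but Sema4a and Plxnc1. Sema6d was higher in LN by a log2 difference of 6.24 ± 0.34 in DC1 (edgeR adjusted p = 1.6e-10) and 4.26 ± 0.31 in DC2 (adjusted p = 1.1e-08). Sema4c was at 18.6 to 29.7 TPM in LN CD103+ DCs, 9.61 to 16.4 TPM in LN CD11b+ DCs and 0.888 to 7.84 TPM in splenic DCs, and it also rose in LN in both lineages (2.35 ± 0.39, adjusted p = 6.3e-05, and 2.98 ± 0.43, adjusted p = 2.5e-05). Sema4f had the opposite pattern in DC1, with 8.92, 11.4 and 22.7 TPM in splenic CD8+ and 2.68 to 3.56 TPM in LN CD103+ DCs (-2.13 ± 0.60, adjusted p = 0.0083, and 0.060 without splenic CD8+ DC replicate 3). It had no count in monocytes, and was at least 236-fold higher in splenic CD8+ DCs with 3 counts over the group as the floor, or at least 130-fold without monocyte replicate 2. In LN against spleen, 4 of the 11 were higher and 1 lower in DC1 (23.8% and 21.8% of all genes), and 3 were higher and 0 lower in DC2 (19.3% and 13.8%). In DC1 against DC2, 2 were higher and 1 lower in each of spleen (13.1% and 14.4% of all genes) and LN (5.22% and 7.73%).

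**Figure D4:**
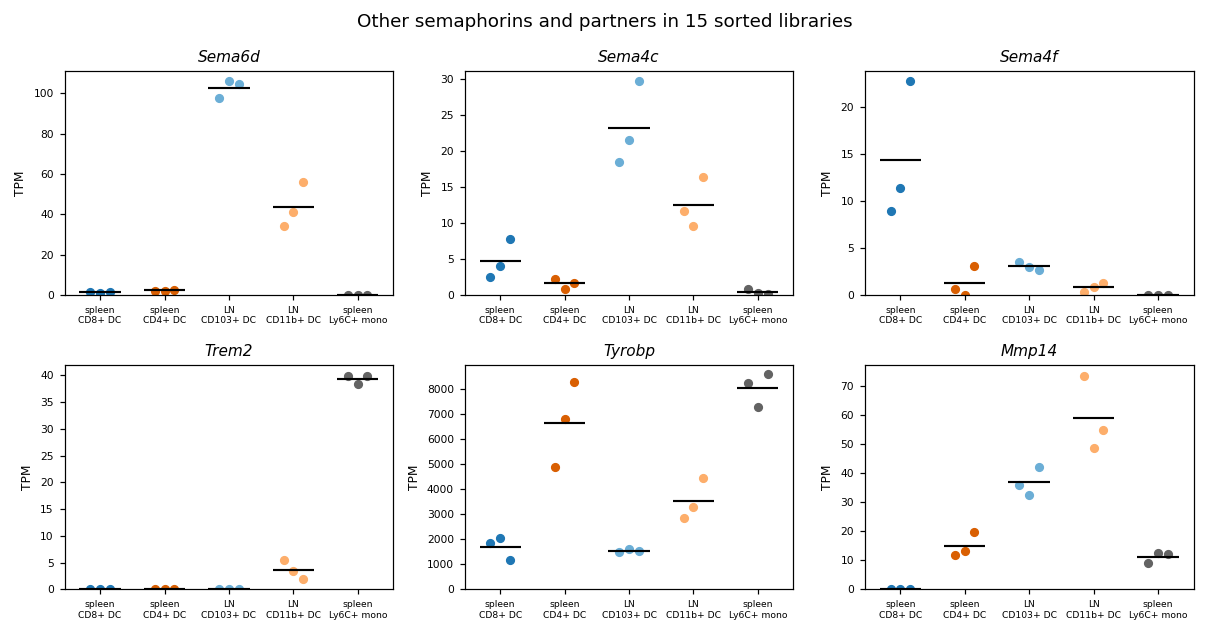
Level in TPM (y axis, from 0) of the 3 other semaphorins that reached 10 CPM and of Trem2, Tyrobp and Mmp14 in the 15 libraries, grouped by subtype. Points are libraries and lines means of 3. Sema6d and Sema4c are highest in LN CD103+ DCs, Sema4f in splenic CD8+ DCs, Trem2 in monocytes (38.4 to 39.9 TPM) and Mmp14 in LN CD11b+ DCs (48.7 to 73.7 TPM).

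Of 47 further genes of the pathway (coreceptors and other receptors, neuropilin ligands and sheddases, cytoplasmic effectors), 45 were tested and 41 differed among the subtypes, beside 73.5% of all genes. In LN against spleen 11 were higher and 14 lower in DC1, beside 23.8% and 21.8% of all genes, and 17 higher and 11 lower in DC2, beside 19.3% and 13.8%. In DC1 against DC2, 12 were higher and 9 lower in spleen (13.1% and 14.4% of all genes), and 5 higher and 6 lower in LN (5.22% and 7.73%). Monocytes gave 19 higher and 11 lower against splenic CD8+ DCs (20.4% and 21.7% of all genes), and 17 higher and 11 lower against splenic CD4+ DCs (23.8% and 24.2%). The partners of plexin A1 were distributed unequally. Trem2, a lipid-sensing receptor, had no count in splenic DCs, 1 count in LN CD103+ DCs, 5.59, 3.43 and 1.94 TPM in LN CD11b+ DCs and 39.8, 38.4 and 39.9 TPM in monocytes. It was at least 49.7-fold higher in LN CD11b+ than in splenic CD4+ DCs (30.1-fold when CD4+ DC replicate 1 was left out). Tyrobp, the adaptor DAP12, was present at 1175 to 8605 TPM in all libraries and was lower in DC1 than in DC2, by a log2 difference of -1.93 ± 0.24 in spleen (edgeR adjusted p = 9.4e-06) and -1.11 ± 0.24 in LN (adjusted p = 0.0035).

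The alternative receptors of the ligands were also measured. Itgb1, the beta 1 integrin that serves Sema7a, rose in LN in both lineages (log2 difference 1.23 ± 0.25 in DC1, edgeR adjusted p = 5.8e-04, and 1.84 ± 0.26 in DC2, adjusted p = 2.1e-05). Its partner Itga1 had 2 counts in splenic CD4+ DCs, both in replicate 2, and was at 3.23 to 16.8 TPM in the other 4 subtypes. Cd72, a receptor of Sema4d, was at 9.27 to 35.3 TPM and did not pass the F test. Among pairs of subtypes it passed only between LN CD103+ and splenic CD4+ DCs, being lower in LN CD103+ DCs. Tesk1 overlaps 41.6% of the Cd72 exon length. Timd2, a receptor of Sema4a, was at 0 to 1.46 TPM, and Gipc1, which binds the tail of neuropilins, at 7.35 to 58.4 TPM. Among ligands of the neuropilins and their coreceptors, Vegfa was at 4.12 to 11.2 TPM in the DC2 subtypes and 0.128 to 1.02 TPM in the DC1 subtypes. The VEGF receptors Flt1 and Kdr reached at most 9.63 and 17.2 TPM. Mmp14, a membrane metalloprotease known to shed Sema4d, had 3 counts in splenic CD8+ DCs, all in replicate 3, and 32.5 to 42.2 TPM in LN CD103+ DCs, and in DC2 it rose in LN by 2.05 ± 0.29 (adjusted p = 2.3e-05). Among the effectors Mical2, of the family of plexin-linked monooxygenases, fell in LN in both lineages (-2.79 ± 0.40, adjusted p = 1.5e-05, and -4.52 ± 0.48, adjusted p = 8.2e-07, with -5.17 without LN CD11b+ DC replicate 1). The small GTPase gene Mras and the myosin gene Myo6 reached at most 9.92 and 4.23 TPM.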

How the data were processed

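RNA was measured in 15 mouse libraries, grouped by sample title. The count values were deposited by the authors without normalization: polyadenylated RNA was amplified (SMARTer), sequenced on Ion Torrent, mapped to mm10 with STAR 2.4.0j and counted per Ensembl gene with featureCounts (Subread 1.5.2), without strand, so that reads shared by overlapping genes count for each. From those counts and exon lengths the authors derived the deposited TPM values. The filter required over 1 CPM in 3 or more libraries and left 14456 genes. One edgeR 4.0.16 quasi-likelihood model (R 4.3.3, TMM, a mean per subtype, 10 residual degrees of freedom) was fitted to all libraries, with Benjamini-Hochberg adjustment over all genes in each comparison and a threshold of 0.05. It was tested on simulated data. Standard errors (SE) were computed as the absolute log2 difference divided by the square root of its F statistic. The members and gene lists were chosen with earlier results of these data known. Named genes were the members, the family genes whose mean reached 10 CPM in any subtype, known partners, the 3 pathway genes with the largest called differences in each of 6 comparisons, and the 2 genes with the nearest profile to each member. Deviations of same-numbered replicates correlated above 0.1 in all 3 pairs, taken as paired, for splenic CD8+ with CD4+ DCs (0.26 to 0.62), LN CD103+ with CD11b+ DCs (0.32 to 0.44), and splenic CD4+ DCs with LN CD103+ (0.20 to 0.35) and LN CD11b+ DCs (0.48 to 0.52). No label names the source of this pairing. Alternatives were RLE size factors, no filter (23169 genes), filterByExpr (13888 genes), a replicate block, only the subtypes compared, limma 3.58.1 on log2(TPM + 1), DESeq2 1.42.0, a log2 difference of at least 1, and leaving out each library. Counting intervals are exact Poisson 95% intervals. AM, IM and human libraries are not used here. The result for 1 pathway gene that the rule names is not reported here.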

Additional observations from a re-analysis of the deposited data

Results flagged for a closer look

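The 4 results below were singled out because the difference between LN and splenic DCs in the DC1 lineage differed from that in the DC2 lineage by the test of the difference itself. The interaction (DC1 minus DC2, log2 scale) was -3.33 for Sema4a, 2.03 for Plxnc1, 1.67 for Plxnd1 and -1.17 for Sema4d. The first of these means a rise of 1.75-fold in DC1 beside 17.5-fold in DC2. Plxnc1 rose 6.95-fold in DC1 and 1.70-fold in DC2, and Plxnd1 rose 9.28-fold and 2.92-fold. Sema4d fell 7.79-fold in DC1 and 3.45-fold in DC2.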

How the results depend on the processing

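The count of members called among the 5 subtypes was 9 under every alternative, and the counts of the 10 comparisons of a pair of subtypes stayed within 1.5 times their values. The interaction count was 4, and 7 without a filter on low counts, which added Sema7a, Nrp2 and Plxnb2 (edgeR adjusted p = 0.0079, 0.023 and 0.029). Leaving out single libraries gave 3 to 6. DESeq2 gave 6, adding Sema7a (2.18, adjusted p = 0.023) and Nrp2 (1.72, adjusted p = 0.038). Without the filter, Nrp1 in LN CD103+ minus LN CD11b+ DCs (adjusted p = 0.045) and Plxnb2 in LN CD11b+ minus splenic CD8+ DCs (0.044) also passed. With the replicate block 6 members passed the interaction, adding Sema7a (2.04, adjusted p = 0.021) and Nrp2 (1.59, adjusted p = 0.028). Splenic CD8+ with CD4+ DCs and LN CD103+ with CD11b+ DCs meet the pairing rule, while splenic CD8+ with LN CD103+ DCs do not. The block also called Nrp2 in monocytes minus splenic CD4+ DCs (0.66, adjusted p = 0.036), a comparison whose libraries share only a number, and beside the values given above it changed no other member's call. Each called member result was counted once per setting. Over the settings that keep all libraries, 589 such pairs of result and setting kept direction and call and 11 lost the call. With single libraries left out, 1102 pairs kept both and 23 lost the call. No called result changed direction. The reversals were all of uncalled values. With limma on log2(TPM + 1), Sema4a in monocytes minus LN CD103+ DCs became 0.12, and the interactions of Plxna1 and Nrp2 became -0.26 and -0.997. Mean Nrp2 in splenic CD8+ DCs was 0.104 TPM, below the 1 that this scale adds to each TPM. With the block the Plxna1 interaction became -0.0013. Leaving out single libraries also turned some: Nrp1 in splenic CD8+ minus CD4+ DCs ranged from -0.026 to 0.62, Plxna1 in monocytes minus splenic CD8+ DCs from -0.013 to 0.49, Sema4a in monocytes minus LN CD103+ DCs from -0.15 to 0.044 and minus LN CD11b+ DCs from -0.033 to 0.16, Plxna1 in LN CD103+ minus splenic CD4+ DCs from -0.12 to 0.45, Nrp1 there from -0.36 to 0.36, and the Plxna1 interaction from -0.31 to 0.26. The causes were not tested. Splenic CD8+ DC Nrp2 (10 counts) and monocyte Sema7a (1 count) are limited by depth.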
